A study of Mus musculus with 18 samples.

Results

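The genes described here are the clustered histone genes of the mouse, taken as every gene whose symbol begins with Hist1h, Hist2h, Hist3h or Hist4h. There were 70 among the 55450 genes of the table. Of these, 6 encode linker histone H1, 20 encode H2A, 19 encode H2B, 12 encode H3 and 13 encode H4, with 67 annotated as protein coding and 3 as pseudogenes. The Hist1 group on chromosome 13 holds 56 of them, the Hist2 group on chromosome 3 holds 10, the Hist3 group on chromosome 11 holds 3, and Hist4h4 stands alone on chromosome 6.

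Bulk RNA-seq was done on mammary tumors of 3 genotypes and on normal mammary gland, all from female C57Bl/6 mice, with 1 library per mouse. The B1/P/Rbf tumors (n = 5) carried Brca1fl/fl/Trp53fl/fl/TgK18GT121Tg/+, the B1/P tumors (n = 5) carried Brca1fl/fl/Trp53fl/fl, the P/Rbf tumors (n = 5) carried Trp53fl/fl/TgK18GT121Tg/+, and the normal glands (n = 3) came from wild type mice. Tumors were started by injecting the adenovirus Ad5-CMV-Cre through the nipple into the mammary ducts at 9 to 13 weeks of age, so that Cre can delete the floxed parts of Brca1 and Trp53 in the cells it reaches. The transgene uses the keratin 18 promoter to express, only after Cre, the fragment T121 of the SV40 large T antigen, which binds and inactivates the retinoblastoma family of proteins in epithelial cells. The virus does not reach every cell and does not select one cell type, a tumor piece holds both transduced and other cells, and the labels give no age at collection and no treatment of the glands. All 3 tumor groups carried the Trp53 alleles, B1/P/Rbf and B1/P shared the Brca1 alleles, and B1/P/Rbf and P/Rbf shared T121.

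Core histones H2A, H2B, H3 and H4 form the protein spool that DNA winds around, and H1 binds the linker DNA between spools. Cells need new histones when they copy their DNA, and most clustered genes are therefore transcribed in S phase, under the co-activator NPAT at the histone locus bodies. Their mRNAs usually end in a conserved stem-loop that is bound by SLBP and cut by a machinery with the U7 small nuclear RNA, and they are the main animal mRNAs without a poly(A) tail. Some of the same genes also give longer, polyadenylated transcripts from a site downstream, mainly in cells that have stopped dividing. The proteins E2F, held in check by the retinoblastoma family, switch on many of the genes of DNA replication.

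The libraries were poly(A) selected. The levels below are therefore those of histone RNA that was kept by poly(A) selection, and they do not measure the stem-loop mRNA that makes up most histone message. To show what the gene models hold, each transcript model was searched for the histone stem-loop, a perfect stem of 6 base pairs that opens with GG and closes with T, around a loop of 4 bases that begins with TT. It was found in 44 of the 70 members and in 46 of 58725 other protein-coding transcripts (0.0783%). The 6 forms found are printed in the RNA sense with T for U, with the loop in capitals.
Stem-loop of 26 members (H1, H2A, H2B and H3; among them Hist1h1c, Hist3h2a, Hist1h2be and Hist2h3c1): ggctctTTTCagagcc
Stem-loop of 7 members (H4; among them Hist1h4h and Hist4h4): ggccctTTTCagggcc
Stem-loop of 6 members (H1, H2B and H3; among them Hist1h1t and Hist1h3c): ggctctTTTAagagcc
Stem-loop of 2 members (Hist1h4i and Hist2h4): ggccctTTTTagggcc
Stem-loop of 2 members (Hist1h4b and Hist1h4j): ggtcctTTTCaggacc
Stem-loop of 1 member (Hist2h2ac): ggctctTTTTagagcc
The middle of the stem thus differed between the H4 genes and the other classes, while the last base of the loop varied within and between them. The ends of the stem and the first 2 loop bases were set by the search.

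The models differed in what follows the stem-loop. In 22 members the model ended 3 to 74 bases after it (median 32), none of these stretches held the poly(A) signal AATAAA, and 7 of the 22 passed the filter on low counts. In the other 22 the model ran on for 151 to 4884 bases (median 761), 13 held AATAAA after the stem-loop, and 17 passed. A further 26 members had no stem-loop of this form in their model, and 8 of them passed. The member with most reads over the 18 libraries had, in 4 of the 5 classes, a model of the long kind, with 840 bases after the stem-loop in Hist1h1c (H1), 1643 in Hist3h2a (H2A), 1167 in Hist2h3c1 (H3) and 330 in Hist1h4i (H4). The leading H2B gene, Hist1h2bc, has a model in 2 exons without a stem-loop.

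RefSeq promoter sequence (build GRCm38.p6, 250 bases before to 50 bases after the start of transcription) was matched for 62 of the 70 members. Of 4 motifs searched, CCAAT on either strand is the box bound by NF-Y, and TATAAA on the coding strand has the letters of the TATA box. ATTTGCAT on either strand is the octamer bound by OCT1, and AAACACA on either strand is an element known from H1 genes. Matches were counted at any position, so a TATAAA counted here need not be a TATA box in its place. None of these motifs contains another. CCAAT was present in all promoters of H1, H2A, H2B and H3 and in 3 of 12 H4 promoters (25.0%), or 53 of 62 in all (85.5%), against 37.4% of all 32851 promoters. TATAAA was present in 30 of 62 (48.4%, against 8.32% of all). The octamer was present in 13 (21.0%, against 1.74%), 7 of H2A and 6 of H2B genes and none of another class. AAACACA was present in 9 (14.5%, against 7.18%), among them 5 of 6 H1 promoters (83.3%). A match of letters is a description and not a measured binding site. The promoters of 5 members whose RNA differed between tumors and glands or led its class are printed, 1 per class, with matches to the 4 motifs in capitals.
Hist1h1c, chr13:23738557-23738856, plus strand: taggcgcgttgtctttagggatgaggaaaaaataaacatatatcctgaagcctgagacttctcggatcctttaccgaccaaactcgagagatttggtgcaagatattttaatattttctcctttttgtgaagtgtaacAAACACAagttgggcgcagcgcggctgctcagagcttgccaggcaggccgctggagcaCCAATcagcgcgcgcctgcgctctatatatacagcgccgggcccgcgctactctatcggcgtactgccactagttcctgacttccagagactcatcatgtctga
Hist3h2a, chr11:58954435-58954734, plus strand: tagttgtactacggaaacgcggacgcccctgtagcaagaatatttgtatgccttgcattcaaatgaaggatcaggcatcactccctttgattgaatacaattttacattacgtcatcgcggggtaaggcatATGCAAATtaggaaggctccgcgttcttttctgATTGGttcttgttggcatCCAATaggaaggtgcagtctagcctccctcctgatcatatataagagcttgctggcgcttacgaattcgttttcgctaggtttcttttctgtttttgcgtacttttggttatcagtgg
Hist1h2be, chr13:23621045-23621344, minus strand: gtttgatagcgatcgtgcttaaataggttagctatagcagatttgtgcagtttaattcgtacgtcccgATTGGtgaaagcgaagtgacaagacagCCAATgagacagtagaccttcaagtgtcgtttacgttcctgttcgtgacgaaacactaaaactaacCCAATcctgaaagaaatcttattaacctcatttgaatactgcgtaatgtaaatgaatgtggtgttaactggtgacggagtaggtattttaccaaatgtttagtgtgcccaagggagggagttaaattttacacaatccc
Hist1h3g, chr13:23535168-23535467, plus strand: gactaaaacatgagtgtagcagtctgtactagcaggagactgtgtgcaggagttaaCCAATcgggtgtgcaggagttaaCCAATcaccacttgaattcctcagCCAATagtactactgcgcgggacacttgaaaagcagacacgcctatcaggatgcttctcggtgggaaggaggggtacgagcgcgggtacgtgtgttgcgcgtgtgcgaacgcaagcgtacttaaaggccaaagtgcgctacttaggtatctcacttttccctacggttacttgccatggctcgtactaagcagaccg
Hist1h4h, chr13:23530794-23531093, plus strand: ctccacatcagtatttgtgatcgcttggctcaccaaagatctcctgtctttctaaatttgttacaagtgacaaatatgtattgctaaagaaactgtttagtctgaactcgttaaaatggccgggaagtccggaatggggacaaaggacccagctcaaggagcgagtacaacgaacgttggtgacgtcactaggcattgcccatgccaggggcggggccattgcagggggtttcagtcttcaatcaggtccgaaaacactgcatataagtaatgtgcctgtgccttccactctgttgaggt
The Hist1h1c promoter held AAACACA and CCAAT at 112 and 54 bases before the start, that of Hist3h2a held the octamer at 119 and CCAAT at 86 and 68, and that of Hist1h2be held CCAAT at 182, 155 and 89. The Hist1h3g promoter held CCAAT at 194, 171 and 147 bases before the start. The Hist1h4h promoter held no copy of the 4 motifs, while TATAAA was present in 8 of 12 H4 promoters (66.7%). In these 8 it lay 250, 137, 128, 127, 32, 16 and 2 bases before the start, and 41 bases after it in Hist1h4a.

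Libraries held 27661146 to 37794892 counts (median 33802242), and the members took 0.00352% to 0.0487% of them. Levels are given in CPM, counts scaled to a common library size with TMM factors. The tissue labels were checked by markers. The 6 epithelial markers (Krt8, Krt18, Epcam and others) were present in all libraries, with a summed level of 851 to 8609 CPM in tumors and 1424 to 1826 in glands. The 6 adipocyte markers summed to 12942 to 16875 CPM in glands and 0.0253 to 75.2 in tumors, and the 5 lymphocyte markers to 202 to 287 in glands and 0.386 to 9.18 in tumors. The glands were thus rich in fat and lymphoid tissue that the tumors nearly lacked, and the part of this difference in any comparison with normal gland was not tested. In bulk tissue, fewer cells of a type and less RNA per cell cannot be told apart. Brca1 RNA was 8.13 to 45.0 CPM in tumors with floxed Brca1, 44.9 to 116 in P/Rbf and 4.61 to 5.99 in glands, and Trp53 was 6.74 to 24.3 in tumors and 54.3 to 71.8 in glands. The 45.0 CPM of Brca1 was in B1/P/Rbf mouse 208863, inside the P/Rbf range, and the study describes the loss of Brca1 in that tumor as partial. Results without it are given with the comparisons. These sums over whole genes include exons outside any deletion and do not check the genotypes.

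Reads of near-identical genes were shared out by the authors' counting, and 76.3% of the members' counts above 0 were not whole numbers, against 13.7% for all genes. All 50-base words of Hist2h2aa2 occur in Hist2h2aa1 (89.2% in the reverse direction), and 34.7% of those of Hist2h3c1 occur in Hist2h3c2 (63.5% in reverse). Values of these pairs are uncertain one by one and are also given summed. Of the 50-base words of Hist1h2bq, 97.3% occur in Hist1h2br (88.7% in reverse), and 89.8% of those of Hist1h4m occur in Hist1h4n. These genes were not summed, so their values are uncertain too. Hist1h2bq and Hist1h2br each count in the H2B medians below. Hist1h1e lies on the same strand as Hist1h2be, their exons overlap, and 23.8% of its 50-base words occur in Hist1h2be. Exons of Hist3h2a overlap those of Trim17 on the same strand and of Gm44313 on the other, those of Hist2h2aa1 and Hist2h3c1 overlap Gm20634 on the same strand, and the Hist2h2aa twins overlap Gm20633 and Gm47313 (Hist2h2aa1) and Gm20632 and Gm47311 (Hist2h2aa2) on the other strand, so that reads of these genes may be shared with them. Counts were found for 67 members, while Hist1h2aa, Hist1h2al and Hist1h2ba, of which the first and the last are testis histones, had 0 counts in all 18 libraries, below the 3 counts that a count of 0 allows in each library. The filter on low counts (filterByExpr with a minimum count of 10) kept 32 members among 19186 genes, namely 4 of H1, 4 of H2A, 10 of H2B, 5 of H3 and 9 of H4. The other 38 had at most 44 counts in any library (Hist1h1a) and a mean level of at most 0.201 CPM. Only Hist1h1c would pass the stricter filter that the study itself applied.

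A group of 3 tumors stood apart in histone RNA. The summed level of all 70 members was 445 CPM in B1/P/Rbf mouse 208857, 357 in B1/P/Rbf mouse 209490 and 291 in P/Rbf mouse 287822, whereas the other 12 tumors ranged from 37.0 to 146 CPM. The glands had 309, 255 and 321 CPM, above the other 12 tumors. Against the median of the 15 tumors, the level in mouse 208857 was 11.4-fold in H3, 7.19-fold in H1, 3.74-fold in H2B, 3.18-fold in H2A and 2.55-fold in H4. In mouse 209490 it was 7.50-fold in H3, 5.32-fold in H1, 3.27-fold in H2B, 2.98-fold in H4 and 2.35-fold in H2A, and in mouse 287822 it was 7.98-fold in H3, 4.77-fold in H1, 3.42-fold in H2A, 2.06-fold in H2B and 1.53-fold in H4. H3 and H1 thus stood furthest above the tumor median in each of them.

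The high levels spread over many members. More than 3 counts were found for 46, 46 and 43 members in these 3 tumors and for 20 to 35 in every other library. Of the 32 tested members, 16 had their highest level of the 15 tumors in mouse 208857 (against 5.41% of all genes), 8 in mouse 209490 (4.19%) and 5 in mouse 287822 (8.68%). These tumors were picked by their histone levels, so their levels and ranks are a description. A member can also pass the filter on low counts through a few high libraries. Hist1h2bp, for example, had up to 11 counts in B1/P/Rbf and 15 in P/Rbf, but at most 3 in B1/P and 1 in glands. The shares over all genes therefore do not measure chance for these ranks. The mean log2 CPM over 24 S phase genes was 6.69 in mouse 208857 and 6.67 in mouse 209490, where the other 3 B1/P/Rbf tumors had 6.53, 6.61 and 6.71. It was 6.74 in mouse 287822, the highest of the 15 tumors, where the other P/Rbf tumors had 6.13 to 6.74. RNAs known to lack a poly(A) tail, such as the U small nuclear RNAs, summed to 3.13, 3.40 and 1.42 CPM in them and to 1.57 to 7.53 CPM in the other 15 libraries, so that mouse 287822 was the lowest of all. Mitochondrial ribosomal RNA was 519, 548 and 623 CPM in them, 771 in P/Rbf mouse 290860, 110 to 316 in the other tumors and 957 to 1787 in the glands, and its part in the histone levels was not tested.

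**Figure D1:**
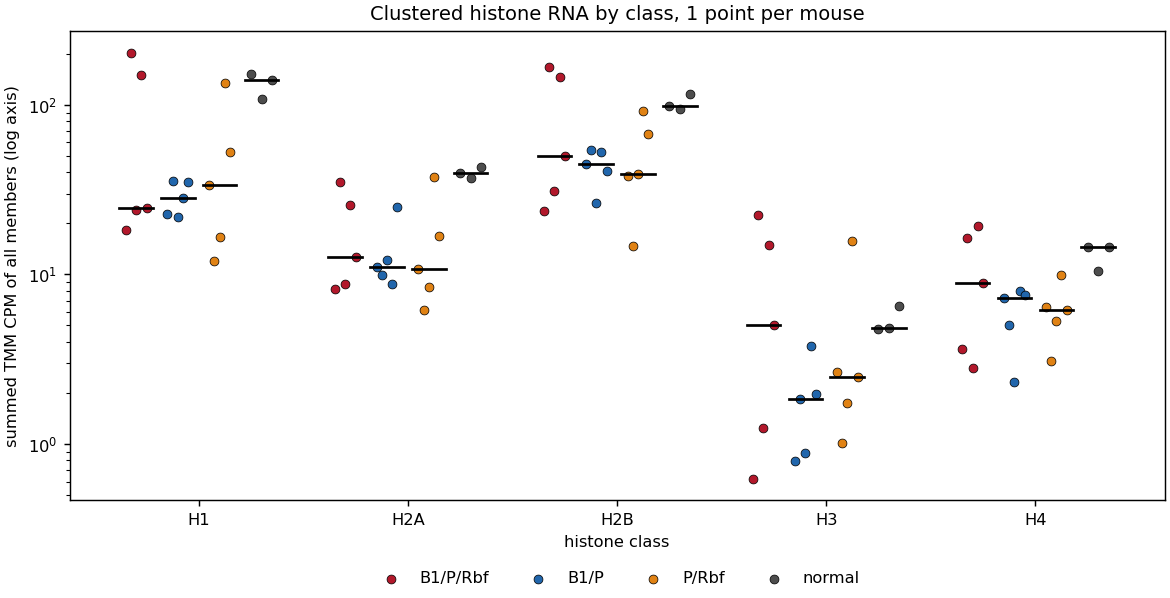
Summed CPM of the members of each histone class (log axis), with 1 point per mouse and the groups side by side within a class. In H1, mouse 208857 lies above all 3 normal glands and mice 209490 and 287822 lie within their range, in H3 all 3 of these tumors lie above the glands, and all 5 B1/P tumors lie below the glands in every class.

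By level per length (CPM per kilobase of gene model, summed over a class), H2B led in the tumors, with group medians of 34.0 in B1/P/Rbf, 35.5 in B1/P and 30.2 in P/Rbf. H1 followed with 16.1, 18.0 and 21.2, then H4 with 12.3, 9.69 and 8.85, H2A with 9.50, 7.59 and 7.71, and H3 with 4.02, 1.75 and 2.49. The length is that of the gene model and not of the RNA kept, and the order depends on it. By summed CPM the medians of H2A (12.7, 11.0 and 10.8) were above those of H4 (8.92, 7.24 and 6.16). In glands the order was H1 at 88.2, H2B at 68.5, H2A at 45.7, H4 at 23.1 and H3 at 4.76. The ranges over mice of H1 and H2B overlapped in every group, as did those of H4 and H2A in every tumor group. H3 had the lowest median in every group, with a range clear of all other classes in glands only, and in B1/P its range overlapped that of H4. Nucleosomes hold equal numbers of the 4 core histones, so these shares describe the polyadenylated RNA and not the proteins. One gene carried most of the reads in 4 classes. Hist1h1c made up 90.8% of the H1 sum, Hist1h2bc 67.0% of H2B, Hist3h2a 65.8% of H2A, Hist1h4i 52.0% of H4 and Hist2h3c1 38.0% of H3 (means over 18 samples). Without the 3 high tumors the share of Hist2h3c1 was 19.5% and Hist2h3c2 led H3 with 42.1%, while the other 4 classes kept their leading gene. The leading gene was not the same in every group, since Hist2h3c1 had a mean of 0.219 CPM in glands where Hist2h3c2 had 3.56, and 0.459 in B1/P where Hist2h3c2 had 0.550. In P/Rbf its median was 0.272 CPM where that of Hist2h3c2 was 0.489, although mouse 287822 raised its mean to 2.00 against 0.904. In glands Hist1h4h (5.28 CPM) and Hist1h4i (5.15 CPM) were close.

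The values below are CPM in the order of mice 208855, 208857, 208863, 209490 and 210906 for B1/P/Rbf, 225068, 225070, 246361, 255232 and 248662 for B1/P, 287842, 287845, 290860, 287822 and 290845 for P/Rbf, and 330154, 330155 and 330156 for glands. Fold changes are log2 values from edgeR's quasi-likelihood fit of all 18 samples with their standard errors, and a member was called where the Benjamini-Hochberg adjusted p over 19186 genes was at most 0.05. Some fits leave out the 3 tumors picked for their high histone RNA. This lowers the tumor means by construction, so calls gained or lost there describe only how far a result rests on these tumors.

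Among the linker histones, Hist1h1c (chr13:23738808-23740367, 1 exon) had 17.7, 178, 22.4, 129 and 21.7 CPM in B1/P/Rbf, 20.6, 34.2, 20.5, 25.9 and 30.8 in B1/P, 30.6, 11.6, 14.3, 124 and 47.1 in P/Rbf, and 141, 102 and 130 in glands. All B1/P tumors were below all glands, while mice 209490 and 287822 were inside the gland range and mouse 208857 was above it. Hist1h1c was called lower in B1/P than in gland (-2.24 ± 0.75, adjusted p = 0.0297) and was not called in B1/P/Rbf (-0.75 ± 0.75, adjusted p = 0.457) or P/Rbf (-1.45 ± 0.75, adjusted p = 0.138). Without the 3 high tumors, which were picked by histone RNA, it was called in B1/P/Rbf (-2.59 ± 0.44, adjusted p = 0.000738) and in P/Rbf (-2.26 ± 0.40, adjusted p = 0.000619). These calls are not separate evidence of a lower level. The call in B1/P was lost when any single gland was left out.

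Hist1h1e (chr13:23620629-23622558) had 0.113, 3.72, 0.358, 4.82 and 0.357 CPM in B1/P/Rbf, 0.381, 0.385, 0.527, 0.680 and 1.51 in B1/P, 1.03, 0.126, 0.531, 1.87 and 1.05 in P/Rbf, and 8.52, 4.32 and 7.68 in glands. Only B1/P/Rbf mouse 209490 reached the glands. It was called lower in B1/P (-3.29 ± 0.97, adjusted p = 0.0155) and P/Rbf (-2.88 ± 0.96, adjusted p = 0.0260).

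Hist1h1b (chr13:21779883-21780625), an H1 gene whose model has no stem-loop, went the other way. It had 0.170, 6.07, 0.524, 5.70 and 1.14 CPM in B1/P/Rbf, 0.763, 0.503, 0.176, 0.414 and 0.378 in B1/P, 0.517, 0.0315, 0.633, 3.81 and 1.60 in P/Rbf, and 0.156, 0 and 0.271 in glands. Most tumors were above the glands, but B1/P/Rbf mouse 208855, B1/P mouse 246361 and P/Rbf mouse 287845 were not clear of them. It was called higher in B1/P/Rbf than in gland (4.23 ± 1.45, adjusted p = 0.0299), and the call was lost without the 3 tumors (2.07 ± 1.17, adjusted p = 0.195), without mouse 208857 or 209490 alone, and without any 1 of the 3 glands. Hist1h1d (chr13:23553262-23560686) had 14.1 and 10.3 CPM in mice 208857 and 209490, 0.113 to 4.58 in the other tumors and 1.54 to 2.71 in glands. It was called in no comparison by edgeR, and by DESeq2 it was called higher in B1/P/Rbf against B1/P (adjusted p = 0.0252).

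In H2A, Hist3h2a (chr11:58954685-58956830), the H2A gene of the small Hist3 cluster, had 6.38, 25.7, 7.80, 17.0 and 9.15 CPM in B1/P/Rbf, 8.83, 7.22, 10.5, 4.88 and 18.5 in B1/P, 8.48, 5.33, 6.53, 27.8 and 14.0 in P/Rbf, and 18.7, 17.3 and 21.0 in glands. The groups overlapped in every comparison and Hist3h2a was not called with all samples. Without the 3 tumors it was called lower in P/Rbf than in gland (-1.15 ± 0.43, adjusted p = 0.0487).

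The twin genes Hist2h2aa1 (chr3:96245497-96246082) and Hist2h2aa2 (chr3:96239749-96240276) are read best as a sum, since almost every read fits both. Their sum was 1.33, 4.23, 0.524, 3.75 and 2.37 CPM in B1/P/Rbf, 1.08, 2.04, 1.31, 1.95 and 5.14 in B1/P, 1.78, 0.441, 0.886, 7.47 and 1.77 in P/Rbf, and 20.2, 19.3 and 21.6 in glands. No tumor reached the glands, the 3 high tumors included. The sum was lower in B1/P/Rbf (-3.06 ± 0.77, adjusted p = 0.00536), B1/P (-3.14 ± 0.78, adjusted p = 0.00512) and P/Rbf (-3.04 ± 0.77, adjusted p = 0.00534). Counted apart by edgeR, Hist2h2aa1 was called in B1/P/Rbf alone (-3.34 ± 1.22, adjusted p = 0.0405). Hist2h2aa2 was called in B1/P (-3.08 ± 1.11, adjusted p = 0.0406) and P/Rbf (-3.99 ± 1.14, adjusted p = 0.0113). Close to the threshold were Hist2h2aa1 in B1/P (-3.20 ± 1.22, adjusted p = 0.0518) and Hist2h2aa2 in B1/P/Rbf (-2.81 ± 1.10, adjusted p = 0.0544). DESeq2 and limma-voom called both genes in B1/P/Rbf and in B1/P, and the reason for the split was not tested. The edgeR calls of Hist2h2aa1 in B1/P/Rbf and Hist2h2aa2 in B1/P were lost when any single gland was left out.

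In H2B, Hist1h2bc (chr13:23684199-23692908) had 16.9, 118, 19.4, 101 and 24.5 CPM in B1/P/Rbf, 29.6, 44.9, 20.2, 42.6 and 24.4 in B1/P, 27.8, 6.52, 22.3, 57.1 and 50.3 in P/Rbf, and 64.4, 60.2 and 72.6 in glands. Mice 208857 and 209490 were above the glands and the other 13 tumors were below them. It was not called with all samples, and without the 3 tumors it was called lower in B1/P/Rbf (-1.70 ± 0.52, adjusted p = 0.0252) and P/Rbf (-1.30 ± 0.47, adjusted p = 0.0450).

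Hist1h2be (chr13:23583670-23621124, 2 exons) had 1.30, 9.44, 1.43, 8.14 and 2.01 CPM in B1/P/Rbf, 0.826, 1.81, 1.18, 1.95 and 2.30 in B1/P, 1.32, 0.441, 1.97, 3.37 and 2.45 in P/Rbf, and 14.9, 10.7 and 18.2 in glands. All 15 tumors were below all 3 glands. It was called lower in B1/P (-3.18 ± 0.69, adjusted p = 0.00198) and P/Rbf (-2.93 ± 0.68, adjusted p = 0.00282), and in B1/P/Rbf it was -1.71 ± 0.67 with all samples (adjusted p = 0.0536) and -3.20 ± 0.61 without mice 208857 and 209490 and P/Rbf mouse 287822 (adjusted p = 0.00155). Hist2h2be (chr3:96221119-96223738) had 2.93 to 9.52 CPM in B1/P, 3.80 to 18.0 in B1/P/Rbf, 4.31 to 14.6 in P/Rbf and 16.7 to 21.8 in glands, and was called lower in B1/P (-1.92 ± 0.51, adjusted p = 0.00821).

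In H3, the twins Hist2h3c1 (chr3:96246685-96248509) and Hist2h3c2 (chr3:96238108-96239127) summed to 0.255, 15.8, 1.05, 9.03 and 3.96 CPM in B1/P/Rbf, 0.318, 0.681, 0.728, 2.28 and 1.04 in B1/P, 1.35, 0.410, 0.304, 11.4 and 1.02 in P/Rbf, and 3.28, 3.70 and 4.37 in glands. The 3 high tumors were above the glands, mouse 210906 was inside their range, and the rest were below. The sum was called in no comparison, with -1.90 ± 1.12 in B1/P against gland (adjusted p = 0.202). Counted apart, Hist2h3c2 was called lower in B1/P (-2.69 ± 0.91, adjusted p = 0.0310), a call lost when any single gland was left out.

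Hist1h3g (chr13:23535422-23535951) had 3, 69, 5, 45 and 8 counts in B1/P/Rbf, 1, 2, 0, 10 and 4 in B1/P, 9, 4, 13, 36 and 6 in P/Rbf, and 2, 0 and 1 in glands. Every B1/P/Rbf tumor was above every gland in CPM. It was called higher in B1/P/Rbf than in gland (adjusted p = 0.0265). With only 3 counts in the glands together, the size is given as a ratio of summed counts per library size, which was 20.8 (95% interval 6.95 to 102, for counting error only). The ratio was 12.3 (4.01 to 61.2) without mouse 208857, 17.4 (5.76 to 86.1) without 209490 and 4.47 (1.28 to 23.9) with both of them left out. The call was lost without the 3 tumors (adjusted p = 0.201), without mouse 208857 alone, and without gland 330155 or 330156. Hist1h3d (chr13:23575763-23577011) had 3.29 and 2.89 CPM in mice 208857 and 209490, 0 to 1.58 in the other tumors and 0.785 to 1.46 in glands, with no call.

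In H4, Hist1h4i (chr13:22040636-22041362) had 2.55, 6.50, 2.37, 10.8 and 5.87 CPM in B1/P/Rbf, 3.56, 3.29, 1.03, 5.14 and 3.75 in B1/P, 4.43, 2.08, 3.74, 4.66 and 3.78 in P/Rbf, and 5.55, 4.25 and 5.65 in glands. The ranges of all 4 groups overlapped and the gene was not called in any comparison. Against gland the B1/P/Rbf difference was 0.13 ± 0.52.

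Hist1h4h (chr13:23531050-23531519), whose model ends near the stem-loop, had 0.284, 3.16, 0.0827, 2.36 and 0.584 CPM in B1/P/Rbf, 1.24, 0.415, 0.0502, 0.798 and 0.788 in B1/P, 0.402, 0.0630, 0.228, 2.32 and 0.476 in P/Rbf, and 5.55, 3.99 and 6.29 in glands. All tumors were below all glands. It was called lower in B1/P (-3.00 ± 1.07, adjusted p = 0.0389) and P/Rbf (-2.91 ± 1.07, adjusted p = 0.0401). Each of these calls was lost when any single gland was left out. Hist4h4 (chr6:136801553-136804415) had at most 9 counts in any B1/P/Rbf tumor and 22, 17 and 11 in glands, and was called lower in B1/P/Rbf (-2.11 ± 0.72, adjusted p = 0.0297). Hist2h4 (chr3:96261682-96263311) had 0.0551 to 1.29 CPM in B1/P/Rbf, 0.296 to 0.882 in B1/P, 0.0630 to 0.510 in P/Rbf and 0.720 to 1.09 in glands. All P/Rbf tumors were below all glands, with no call by edgeR (-1.66 ± 0.74, adjusted p = 0.0883), while the fit without mouse 208863 called it lower there.

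**Figure D2:**
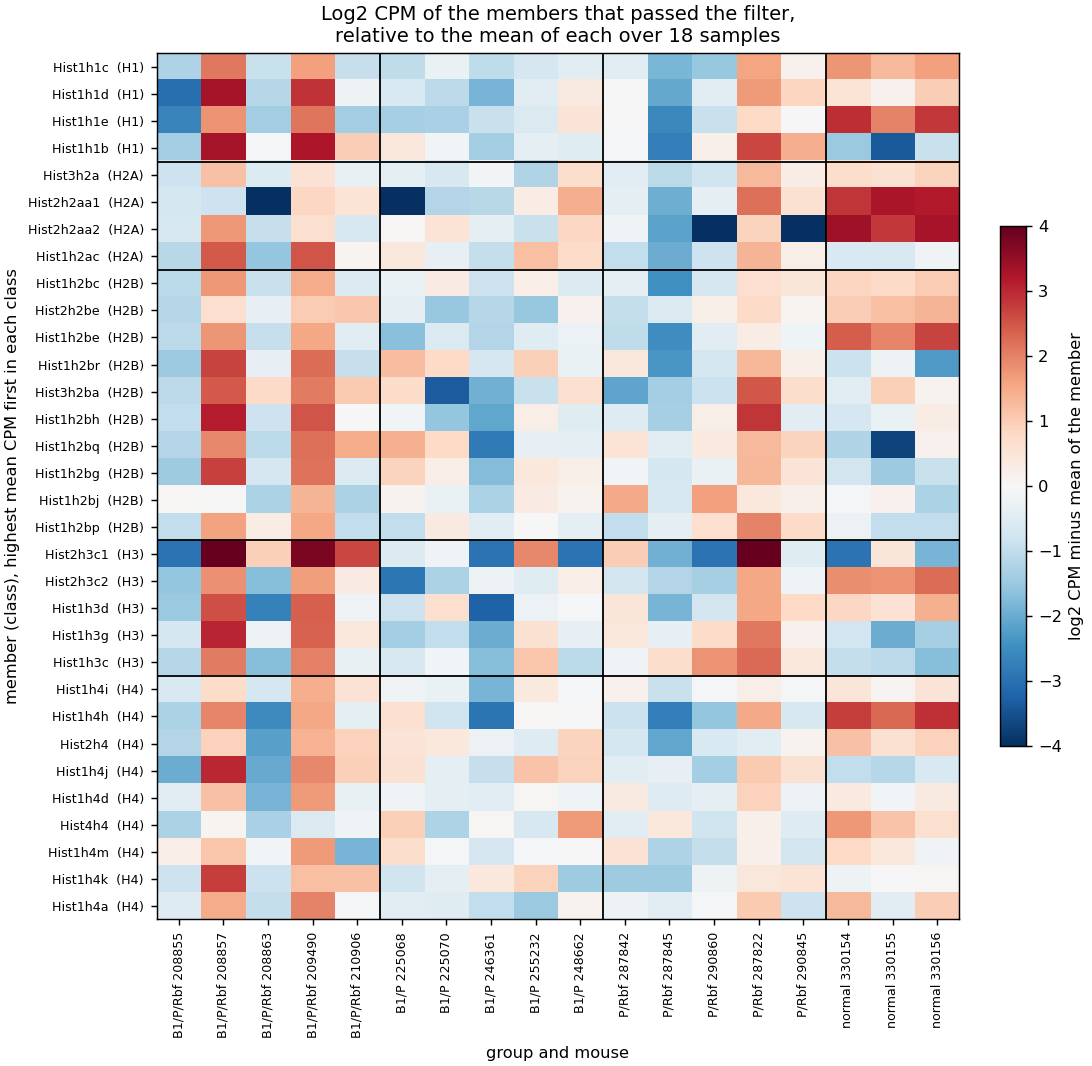
Log2 CPM of the 32 tested members, each relative to its own mean over 18 samples, with members in order of class and libraries in order of group and mouse. The columns of mice 208857, 209490 and 287822 are high over most members of all 5 classes, and the gland columns are high for Hist1h1c, Hist1h1e, Hist1h2be, Hist1h4h and the Hist2h2aa twins and low for Hist1h1b and Hist1h3g.

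The comparisons of tumor genotypes ask whether loss of Brca1 or of retinoblastoma family function went with a change in these genes. No member was called by edgeR with all 18 samples and group as the only term. B1/P/Rbf and B1/P tumors differ in T121. Between them, edgeR called 0 members higher and 0 lower, where 7.36% and 9.29% of all genes were called. At an unadjusted p under 0.05 there were 8 higher (25.0% of the 32, where 14.1% of all genes were) and 0 lower (17.2% of all genes). DESeq2 called 5 higher (Hist1h1b, Hist1h1d, Hist1h2bh, Hist1h3g and Hist2h2be, 15.6% of the 32, where 10.2% of all genes were) and 0 lower (12.8% of all genes), and limma-voom called 0 and 0 (8.00% and 8.04% of all genes). The 8 were Hist1h1b, Hist1h1c, Hist1h1d, Hist1h2be, Hist1h2bh, Hist1h3g, Hist1h4a and Hist2h2be, named after their values were seen, with fold changes of 1.20 to 2.73 and adjusted p of 0.0682 to 0.144. Across the 32 members the median was 1.20 with 30 positive, against -0.06 for all genes tested, and by limma-voom it was 0.83 against 0.02. The members share the same libraries, so medians and signs here and below are a description and not separate results. Some members also passed the filter through high B1/P/Rbf tumors. Hist1h4k, for example, had up to 37 counts there and at most 8 in B1/P, 6 in P/Rbf and 3 in glands. Without the 3 high tumors the median was -0.50 with 10 positive, and edgeR called 0 higher and 0 lower (4.52% and 4.44% of all genes), with 0 at an unadjusted p under 0.05 (12.0% and 13.8% of all genes).

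In P/Rbf against B1/P, which differ in both T121 and Brca1, edgeR called 0 members higher (8.43% of all genes) and 0 lower (10.8%), with 0 at an unadjusted p under 0.05 (15.7% and 18.9% of all genes) and 0 by DESeq2 (11.8% and 14.4%) or limma-voom (8.23% and 8.24%). The median was 0.41 with all samples, 0.79 by limma-voom with quantile normalization, and -0.14 without the 3 tumors, where 0 were called (6.48% and 8.70% of all genes). Between B1/P/Rbf and P/Rbf, which differ in Brca1, 0 were called higher (0.219% of all genes) and 0 lower (0.0625%), with 0 at an unadjusted p under 0.05 (8.06% and 8.01% of all genes) and 0 by DESeq2 (3.09% and 2.26%) or limma-voom (0.109% and 0.0261%). Few genes of any kind were called there. The median was 0.89, 0.13 by limma-voom, and -0.17 without the 3 tumors, where again 0 were called (0.130% and 0.0156%) and 2 members, Hist1h2bj and Hist1h3c, were lower at an unadjusted p under 0.05 (6.25% of the 32, where 5.44% of all genes were). A p above the threshold in groups of 5 with such spread does not show that the genotypes had equal levels. The summed H1 level, for example, differed by 0.85 ± 0.75 (log2) between B1/P/Rbf and B1/P with all samples and by -0.35 ± 0.20 without the 3 tumors. Without mouse 208863, 0 members were called higher or lower in B1/P/Rbf against B1/P (5.93% and 7.06% of all genes), in P/Rbf against B1/P (7.89% and 10.4%) and in B1/P/Rbf against P/Rbf (0.292% and 0.0782%, again few of any kind). The medians for the first and last of these were 1.46 and 1.17.

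The comparisons with normal gland ask how tumors of each genotype differ from the tissue of origin. Of 32 members, 2 were called higher in B1/P/Rbf (Hist1h1b and Hist1h3g, where 17.1% of all genes were called) and 2 lower (Hist2h2aa1 and Hist4h4, 20.0%). DESeq2 called 5 higher and 4 lower there (20.5% and 21.3% of all genes), and limma-voom 2 and 4 (20.6% and 19.5%). Without mouse 208863, edgeR called 5 higher (15.2% of all genes), namely Hist1h1b, Hist1h2bg, Hist1h3c, Hist1h3g and Hist1h4j, and 0 lower (18.2%). In B1/P, 0 were called higher (16.8%) and 7 lower (16.9%), namely Hist1h1c, Hist1h1e, Hist1h2be, Hist1h4h, Hist2h2aa2, Hist2h2be and Hist2h3c2. None was higher at an unadjusted p under 0.05 (23.0% of all genes) or by DESeq2 (20.7%) or limma-voom (18.5%). In P/Rbf, 0 were called higher (17.4%), with 3 at an unadjusted p under 0.05 (9.38% of the 32, where 22.7% of all genes were) and 3 by DESeq2 (20.7% of all genes) and by limma-voom (20.0%), and 4 were called lower (20.3%), namely Hist1h1e, Hist1h2be, Hist1h4h and Hist2h2aa2. Few of the edgeR calls with all samples held whichever single library was left out. They were Hist1h1e, Hist1h2be and Hist2h2be in B1/P, and Hist1h2be and Hist2h2aa2 in P/Rbf. The 3 comparisons share the same glands, so their calls are not separate evidence.

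The medians over the 32 members were 0.38 in B1/P/Rbf, -0.63 in B1/P and -0.33 in P/Rbf, against 0.05, 0.12 and 0.05 for all genes. By limma-voom with quantile normalization, which the study used, the members' medians were 0.42, -0.23 and 0.43 against 0.21, 0.19 and 0.21 for all genes, so that the P/Rbf median had the other sign in that fit, which changes the test and the scaling at once. It stayed negative in P/Rbf by DESeq2 (-0.34) and with upper-quartile factors (-0.40). A fit without TMM factors moved the median of all genes by 0.37, 0.35 and 0.27 in these comparisons, and the members' medians were then 0.77 in B1/P/Rbf, -0.29 in B1/P and -0.039 in P/Rbf. The labels number the libraries and name no batch, and a split between numbers 1 to 8 and 9 to 18 was taken from an earlier analysis of these data. With a term for this split, the 7 members called lower in B1/P came down to 1, Hist1h2be, while the share of all genes called lower went from 16.9% to 13.3%. Numbers 9 to 18 hold the 3 glands at 255 to 321 CPM of summed histone RNA, the 5 P/Rbf tumors at 37.0 to 291 and B1/P mice 255232 and 248662 at 102 and 110. What the split stands for was not tested.

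**Figure D3:**
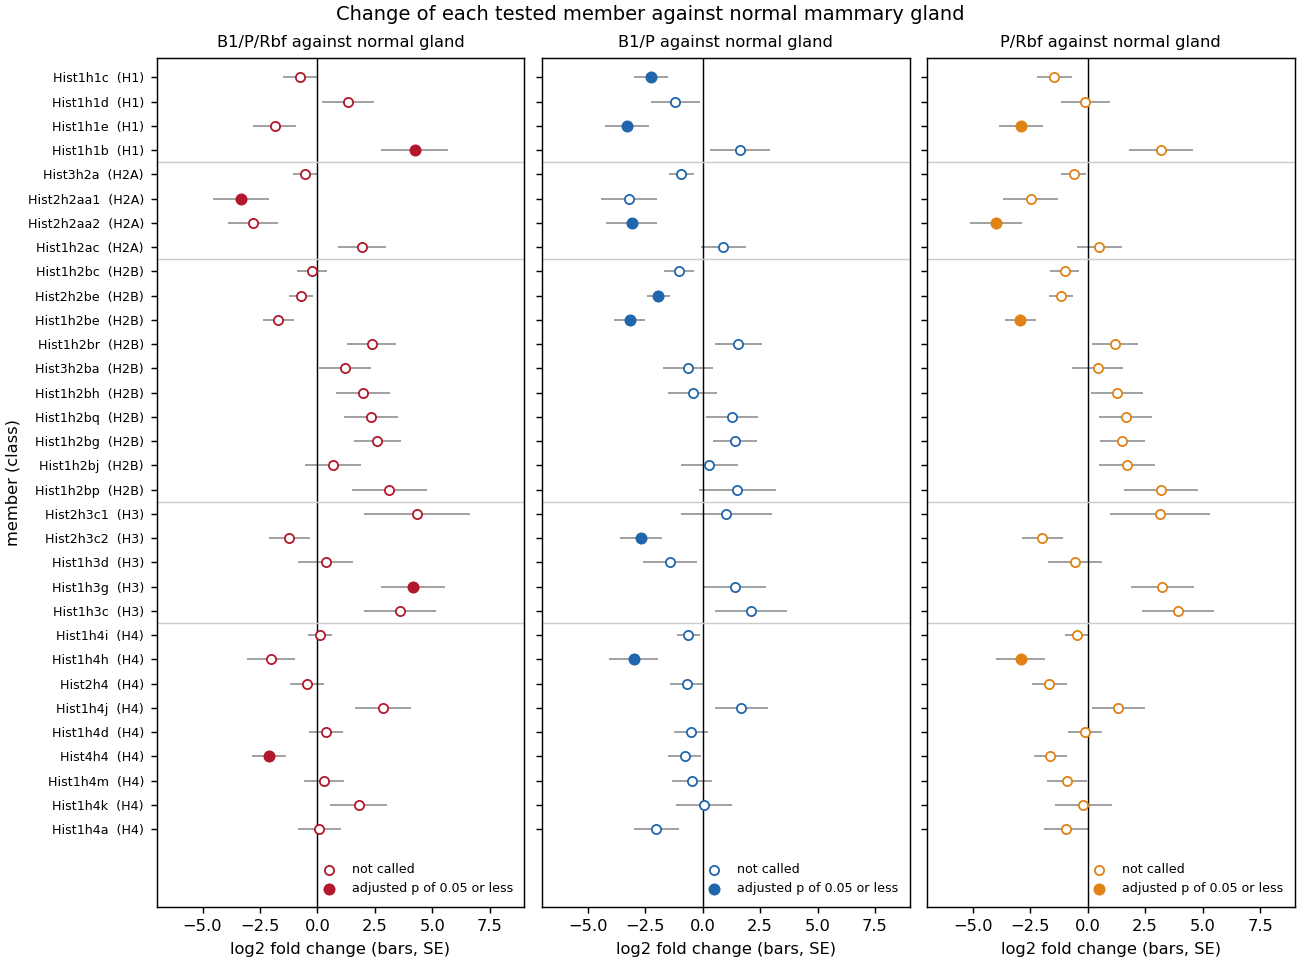
Log2 fold change of each of the 32 tested members against normal gland, in 1 panel per tumor genotype with bars for the SE and called members marked. Called members lie to the left of 0 in B1/P and P/Rbf, and to both sides in B1/P/Rbf.

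Leaving out the 3 tumors with the most histone RNA lowers the tumor means by construction, and the fits without them describe only how far the calls rest on them. For B1/P/Rbf against gland, 0 members were then called higher (13.9% of all genes) and 7 lower (16.3%). The 7 were Hist1h1c, Hist1h1e, Hist1h2bc, Hist1h2be, Hist1h4h, Hist2h2aa2 and Hist2h3c2, and none of the 4 members called with all samples was among them. In B1/P, whose tumors all stayed in, 0 were higher (16.5%) and the same 7 were lower (16.9%). In P/Rbf, 0 were higher (16.8%) and 8 lower (20.0%), the earlier 4 with Hist1h1c, Hist1h2bc, Hist2h3c2 and Hist3h2a. The medians became -0.997 in B1/P/Rbf and -0.80 in P/Rbf and stayed at -0.63 in B1/P.

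**Figure D4:**
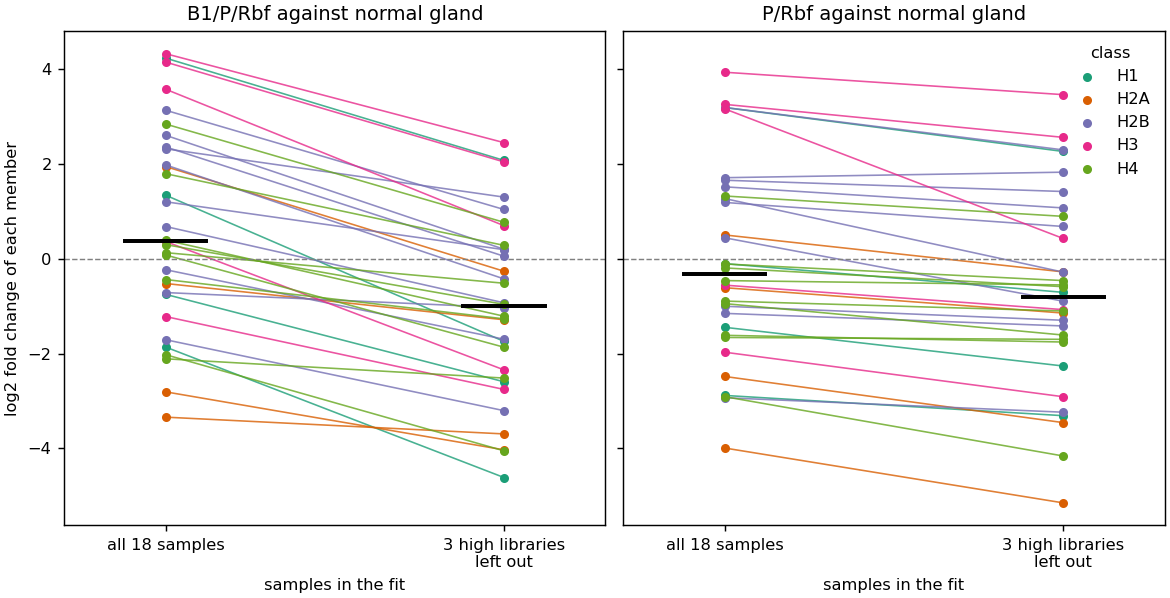
Log2 fold change of each tested member against normal gland with all 18 samples and with the 3 high tumors left out, for B1/P/Rbf and P/Rbf, 1 line per member coloured by class. Most lines fall, and the median over members goes from 0.38 to -0.997 in B1/P/Rbf and from -0.33 to -0.80 in P/Rbf in these edgeR fits (0.43 in P/Rbf by limma-voom with all samples).

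Summed by class, all 5 B1/P tumors lay below all 3 glands in each class. The difference in log2 summed CPM was -2.24 ± 0.21 (SE) for H1, -1.75 ± 0.44 for H3, -1.69 ± 0.27 for H2A, -1.27 ± 0.21 for H2B and -1.24 ± 0.37 for H4. In P/Rbf the groups did not overlap for H2B (-1.28 ± 0.46) and H4 (-1.17 ± 0.31), and in B1/P/Rbf for H2A (-1.39 ± 0.42). Without the 3 high tumors these differences were -1.56 ± 0.47, -1.37 ± 0.29 and -2.04 ± 0.21. The sums carry no test and give most weight to the members with most reads. With all samples, medians over the tested members in B1/P were -1.71 for H1, 1.04 for H3 (3 of 5 positive) and -2.01 for H2A. They were -0.07 for H2B (5 of 10 positive) and -0.62 for H4. In P/Rbf the median was 1.23 for H2B (7 of 10 positive) and -0.89 for H4, and in B1/P/Rbf it was -1.67 for H2A. Without the 3 high tumors the H2B median in P/Rbf was 0.20. The members whose models end near the stem-loop summed to 26.6, 24.1 and 28.3 CPM in glands and to 1.02 to 12.7 CPM in the 15 tumors, or 1.02 to 6.87 without the 3 high ones. Most of the gland sum came from the Hist2h2aa twins (19.3 to 21.6 CPM) and Hist1h4h (3.99 to 6.29). The members whose models run past the stem-loop summed to 150 to 199 CPM in glands and 22.3 to 282 CPM in tumors, or 22.3 to 78.1 without the 3 high ones, so that they reached the gland range only in the 3 high tumors.

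Genes of DNA replication and of histone supply were tested in the same fit. All 24 S phase genes, such as Pcna (the sliding clamp of DNA polymerase) and Mcm2 (a subunit of the replicative helicase), were called higher than gland in each tumor genotype, where 17.1%, 16.8% and 17.4% of all genes were. The S phase medians were 3.02 in B1/P/Rbf, 2.11 in B1/P and 2.92 in P/Rbf. Between tumors, 17 of them were called higher in B1/P/Rbf and 16 in P/Rbf, both against B1/P (7.36% and 8.43% of all genes), with 0 lower (9.29% and 10.8%) and medians of 1.21 and 1.02, and 0 were called between B1/P/Rbf and P/Rbf, where 0.219% of all genes were higher and 0.0625% lower. The epithelial markers summed to 851 to 2456 CPM in B1/P, 2692 to 5146 in B1/P/Rbf and 4117 to 8609 in P/Rbf. The fibroblast markers had medians of 1908 CPM in B1/P, 624 in B1/P/Rbf and 1198 in P/Rbf, with overlapping ranges. The part of these marker differences in calls between tumors was not tested. Pcna was 2.17 ± 0.25 above gland in B1/P/Rbf, 1.14 ± 0.24 in B1/P and 2.25 ± 0.25 in P/Rbf. The glands had the lowest S phase level, a mean log2 CPM of 3.59 to 3.81 against 5.19 to 6.74 in tumors, beside a histone sum above that of 12 of the 15 tumors.

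**Figure D5:**
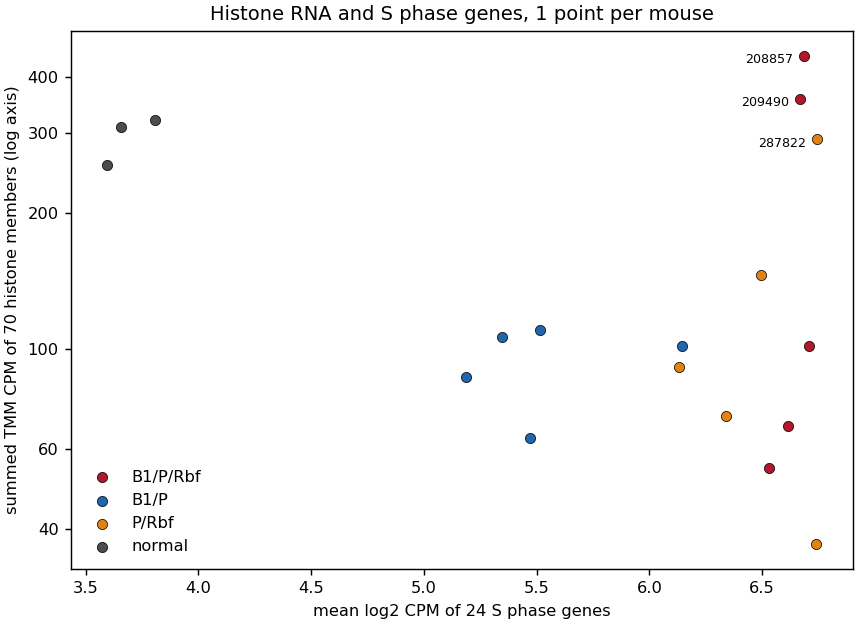
Summed CPM of the 70 members (log axis) against the mean log2 CPM of 24 S phase genes, 1 point per mouse. The 3 glands lie at the left with 255 to 321 CPM, and tumors between 6.53 and 6.74 on the horizontal axis include both low and high histone sums.

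Of 12 genes for histone gene transcription and 3′ end formation, 9 were called higher than gland in B1/P/Rbf, 6 in B1/P and 9 in P/Rbf (17.1%, 16.8% and 17.4% of all genes), and 0 lower (20.0%, 16.9% and 20.3%). Slbp, whose protein binds the stem-loop, was 1.88 ± 0.27 in B1/P/Rbf (adjusted p = 4.82e-05), 1.74 ± 0.27 in P/Rbf (adjusted p = 8.94e-05) and 0.64 ± 0.25 in B1/P (adjusted p = 0.0630, not called). Slbp was also called higher in B1/P/Rbf (1.24 ± 0.22, adjusted p = 0.00164) and P/Rbf (1.10 ± 0.22, adjusted p = 0.00322) than in B1/P. Npat, the co-activator of clustered histone genes, was higher than gland in all 3 genotypes (1.69 for B1/P/Rbf, 1.45 for B1/P, 1.59 for P/Rbf) and did not pass the test between tumors. Casp8ap2, a partner of NPAT in the histone locus body, was higher than gland by 1.58, 1.40 and 1.57, and Zfp473, a zinc finger protein of histone 3′ end processing, by 3.73, 2.25 and 2.86.

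Of 12 histone chaperones, which carry histones to DNA, 10 were called higher than gland in B1/P/Rbf, 7 in B1/P and 10 in P/Rbf, and 0 lower, beside the same 17.1%, 16.8% and 17.4% of all genes higher and 20.0%, 16.9% and 20.3% lower. Chaf1a, the large subunit of chromatin assembly factor CAF-1, was 3.60 ± 0.35 above gland in B1/P/Rbf, 2.85 ± 0.33 in B1/P and 3.69 ± 0.35 in P/Rbf. Nasp, a chaperone of H3 and H4, was 2.27 ± 0.31, 1.63 ± 0.30 and 2.15 ± 0.31 above gland.

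The 11 histone genes outside the clusters, whose mRNAs are polyadenylated, had 5 members called higher than gland for B1/P/Rbf, 4 for B1/P, 6 for P/Rbf and 0 lower, where of all genes 17.1%, 16.8% and 17.4% were higher and 20.0%, 16.9% and 20.3% lower. H2afz, the H2A variant of promoters, rose by 1.35 ± 0.28, 0.87 ± 0.27 and 1.93 ± 0.29, and Cenpa, the H3 variant of centromeres, by 2.74 ± 0.30, 1.96 ± 0.29 and 3.19 ± 0.31. Between tumors, Cenpa was called higher in B1/P/Rbf (0.78 ± 0.23, adjusted p = 0.0284) and P/Rbf (1.23 ± 0.23, adjusted p = 0.00251) than in B1/P. H1f0, the linker histone of non-dividing cells, was called only in P/Rbf against gland (1.20 ± 0.44, adjusted p = 0.0409). Of the RNAs known to lack a poly(A) tail, 3 of 16 passed the filter and 0 were called by edgeR in any of the 6 comparisons.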

How the data were processed

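RNA of 15 mammary tumors and 3 normal mammary glands was sequenced by the authors as poly(A)-selected libraries (Illumina Stranded mRNA Prep, paired-end, NovaSeq 6000 SP), trimmed with cutadapt 1.18 and counted with RSEM 1.3.0. The deposited values are RSEM expected counts per gene, not normalized and not filtered. The methods name the human build GRCh38 with GENCODE 30, while all 55450 gene identifiers are those of mouse GENCODE M21 (GRCm38), whose models were used here. Whether counting used the strand is not given in the sources used here, so reads of genes that overlap on opposite strands may not be told apart. No column was left out (0 unused) and no entry lacked a gene.

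Expected counts were rounded and tested with edgeR 4.0.16 in R 4.3.3 (quasi-likelihood test, TMM factors, filterByExpr with a minimum count of 10, group as the only term, all 18 samples in 1 fit), with Benjamini-Hochberg adjustment over 19186 genes and a threshold of 0.05. The study itself used limma-voom with quantile normalization and kept a gene only where 6 or more libraries reached 6 on the log2 CPM scale. TMM factors were 0.952 to 1.11 in tumors and 0.788 to 0.858 in glands. The script was tested on simulated data. CPM are edgeR's with TMM factors and no prior count. Class sums carry an SE from the spread of samples and no p. Depth limits members at few counts, and intervals cover counting error only. Each library is a different mouse, no 2 libraries of a group agreed within sampling noise, and nothing in the labels pairs mice across groups.

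The members, gene lists and tests were chosen with earlier results of these data known. Members named in full were, by rule, the 3 of highest mean CPM in each class among those that passed the filter, and up to 3 called members of largest change in each direction of each comparison. Alternatives were DESeq2 1.42.0, limma-voom (limma 3.58.1), no TMM, upper-quartile factors, no filter, the study's filter, only the groups compared, a term for library sets, and leaving out each library. Leaving out 3 tumors and summing twin genes were added after seeing the data. The lists of S phase genes, histone processing genes, chaperones, variants, RNAs without poly(A) tails and cell type markers are textbook lists. Of the marker lists not given above, fibroblast markers summed to 541 to 7246 CPM in tumors and 676 to 1289 in glands, macrophage markers to 156 to 2395 and 331 to 407, and endothelial markers to 62.0 to 263 and 322 to 361.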

Additional observations from a re-analysis of the deposited data

Results flagged for a closer look

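Among 69 groups of 5 tumors tested for a single value far from the rest (Dixon's test at 95%), 8 had one, all of them high. The test's rate of 1 in 20 holds for normally distributed values, and CPM were tested without a log. The number of flags is therefore a description and does not show an excess over chance. In P/Rbf, mouse 287822 was the one far above the others for summed H3 (15.8 CPM, others 1.01 to 2.64), Hist2h3c1 (8.81 CPM, others 0 to 0.862), Hist2h3c2 (2.63 CPM, others 0.304 to 0.749), Hist1h4h (2.32 CPM, others 0.0630 to 0.476) and Hist1h3g (0.947 CPM, others 0.126 to 0.329). In B1/P, mouse 248662 was far above for summed H2A (25.0 CPM, others 8.81 to 12.2) and Hist1h1e (1.51 CPM, others 0.381 to 0.680). In B1/P, mouse 255232 was far above for Hist2h3c1 (1.68 CPM, others 0 to 0.355), a gene that shares reads with Hist2h3c2. The members share libraries, so these are not independent. In B1/P/Rbf no value was singled out, where 2 high tumors of 5 (mice 208857 and 209490) leave no single gap.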

How the results depend on the processing

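Depth limits the members at a few counts, poly(A) selection limits all of them, and groups of 5 and 3 with 3 outlying tumors limit the tests. Of the recomputed counts of called members, 280 stayed within 1.5 times, 24 rose and 32 fell. Where counts changed, the cause was not tested. Percentages are the shares of all genes called in the same fit, and none is given here for the fits without single libraries. In B1/P/Rbf against B1/P, members called higher (0) were 5 with DESeq2 (10.2%) and 1 with the library-set term (5.52%), and 0 to 3 without single libraries. For B1/P/Rbf against normal, members higher (2) were 5 with DESeq2 (20.5%), 4 without TMM (26.7%), 0 with the study's filter (19.8%), 1 with the library-set term (9.26%), 0 without the 3 high tumors (13.9%) and 0 to 5 without single libraries. There, members lower (2) were 4 with DESeq2 (21.3%), 4 with limma-voom (19.5%), 0 without TMM (15.0%), 1 with no filter (12.2%), 0 with the study's filter (18.9%), 0 with the library-set term (11.0%), 7 without the 3 tumors (16.3%) and 0 to 3 without single libraries. For B1/P against normal, members lower (7) were 3 without TMM (12.7%), 1 with the study's filter (17.1%), 1 with the library-set term (13.3%) and 3 to 8 without single libraries. For P/Rbf against normal, members higher (0) were 3 with DESeq2 (20.7%), 3 with limma-voom (20.0%), 2 without TMM (24.6%), 2 with only the groups compared (18.0%) and 0 to 1 without single libraries, and members lower (4) were 0 with the study's filter (18.6%), 8 with only the groups compared (21.4%), 8 without the 3 tumors (20.0%) and 2 to 8 without single libraries. The study's filter tests 1 member.

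For class sums, H1 in B1/P/Rbf against B1/P was -0.35 without the 3 tumors, and in B1/P against normal H1 was -1.88 and H2B -0.92 without TMM. Without the 3 tumors, 20 of 32 members changed sign in B1/P/Rbf against B1/P, 11 in P/Rbf against B1/P, 15 in B1/P/Rbf against P/Rbf, and against normal 9 in B1/P/Rbf, 3 in P/Rbf and 0 in B1/P. All changes went from positive to negative, the direction that leaving out these tumors brings by construction. In B1/P/Rbf against B1/P, 8938 of all 19186 genes were positive with all samples and 8725 without the 3 tumors. In the same comparison Hist1h1d went from 2.52 to -0.56 and Hist1h4h from 0.98 to -1.05. Directions of the leading gene of each class turned as follows. Without the 3 tumors, in B1/P/Rbf against B1/P, P/Rbf against B1/P and B1/P/Rbf against P/Rbf, Hist1h1c was -0.36, -0.027 and -0.33, Hist3h2a -0.36, -0.22 and -0.14, and Hist1h2bc -0.67, -0.27 and -0.40. In the same setting Hist2h3c1 was -0.61 in P/Rbf against B1/P and Hist1h4i -0.52 in B1/P/Rbf against normal. Hist1h2bc in P/Rbf against B1/P was -0.25 with limma-voom, -0.037 without TMM, -0.062 with upper-quartile factors and -0.029 with the library-set term, and in B1/P/Rbf against normal 0.16 without TMM. Hist2h3c1 summed with its twin was -1.90 in B1/P and -0.38 in P/Rbf against normal. Hist1h4i was -0.25 in P/Rbf against B1/P with the library-set term and 0.36 in P/Rbf against normal with limma-voom. None of these members was called in these comparisons by edgeR with all 18 samples. Without the 3 tumors, Hist1h2bc was called lower in B1/P/Rbf against normal (adjusted p = 0.0252), in a fit that lowers tumor means by construction.

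Without single libraries, P/Rbf against B1/P ranged from -0.027 to 1.03 for Hist1h1c, -0.22 to 0.66 for Hist3h2a, -0.27 to 0.28 for Hist1h2bc, -0.61 to 3.70 for Hist2h3c1 and -0.074 to 0.36 for Hist1h4i. Hist3h2a ranged from -0.30 to 0.62 in B1/P/Rbf against P/Rbf, Hist2h3c1 from -0.54 to 3.61 in B1/P against normal, and Hist1h4i from -0.25 to 0.32 in B1/P/Rbf against normal. Hist1h1e, Hist1h2be and Hist2h2be in B1/P and Hist1h2be and Hist2h2aa2 in P/Rbf kept their calls against normal in all 18 such fits. The other calls were lost without 1 library. Without any 1 gland this held for Hist1h1c, Hist1h4h, Hist2h2aa2 and Hist2h3c2 in B1/P, Hist1h4h in P/Rbf, and Hist1h1b and Hist2h2aa1 in B1/P/Rbf. It held for Hist1h1c in B1/P without mouse 225068, 246361 or 255232, for Hist1h4h without 225070, 246361, 255232 or 248662, for Hist2h2aa2 without any 1 B1/P tumor, and for Hist2h3c2 without 225068, 225070 or 255232. It held in P/Rbf for Hist1h4h without any 1 tumor but 287822 and for Hist1h1e without 290860 or gland 330154 or 330156. It held in B1/P/Rbf for Hist2h2aa1 without any 1 tumor but 209490, for Hist4h4 without 208855, 208863, 209490 or gland 330154 or 330155, for Hist1h1b without 208857 or 209490, and for Hist1h3g without 208857 or gland 330155 or 330156. Hist1h1c gained a call in P/Rbf without 287822. The library-set term separates numbers 1 to 8 from 9 to 18, a split that the labels do not name as a batch, and leaves B1/P/Rbf and normal in different sets. No paired analysis was possible because the mice of different groups share no number.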
